A study of Mus musculus with 29 samples.

Results

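The expression of 10 imprinted genes that act in growth control was examined in RNA-seq libraries of mouse hematopoietic stem cells (HSCs), the rare bone marrow cells that renew themselves and give rise to all blood lineages. The genes are H19, Igf2, Igf2r, Dlk1, Meg3, Rian, Ndn, Peg3, Grb10 and Mest, taken by name from the 55376 gene symbols of each count table. All 10 passed the filter on low counts and were among the 33690 genes tested. In the study HSCs were isolated from young and old mice, either wild type or lacking Gadd45b, to ask how loss of this gene changes DNA methylation and transcription with age. The 19 libraries fell into 4 groups, which the text calls YWT (young, wild type, n = 4), OWT (old, wild type, n = 4), YKO (young, knockout, n = 4) and OKO (old, knockout, n = 7). The study's methods give more RNA-seq samples than these for OWT and YKO, and the same numbers for YWT and OKO. The knockout is carried by the whole animal, on a C57BL/6 background, so it was not limited to HSCs, and ages are given only as young and old. The labels of all 4 groups give HSCs and female, while the study's methods state that its data sets hold both sexes. The study sorted HSCs as lineage-negative cells with cKit and Sca1 and with CD150 but without CD34 and Flk2. Nothing in the labels ties a library to 1 animal, and the p-values here measure the spread between libraries.

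Imprinted genes are transcribed mainly from 1 parental copy, chosen by DNA methylation that is set in the germ line and kept in body cells. Many of them regulate growth, with paternally expressed genes such as Igf2, Dlk1, Peg3 and Mest tending to promote or accompany growth of the fetus and maternally expressed genes such as H19, Igf2r and Grb10 tending to restrain it. In HSCs several of them have been linked to quiescence, among them the H19-Igf2 locus, the Dlk1-Meg3 cluster and Ndn. The counts do not separate maternal from paternal transcripts, so a level here is the sum over both copies. In bulk HSCs, fewer cells that express a gene and less RNA of it per cell cannot be told apart.

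Library totals ranged from 22197555 to 77970627 counts. Gadd45b itself, counted in all libraries, was at 9.12, 17.5, 8.17 and 7.34 CPM, counts scaled to a common library size, in YWT1 to YWT4 and at 12.7, 14.3, 5.98 and 5.14 CPM in YKO1 to YKO4, so 2 libraries labelled YKO lay within the YWT range. Its log2 fold change was -0.14 in YKO vs YWT (SE 0.36, edgeR adjusted p = 1). For the old libraries, OKO vs OWT, it was -1.37 (SE 0.31, edgeR adjusted p = 0.267), with all 7 OKO libraries (2.84 to 6.94 CPM) below OWT (10.1 to 15.5 CPM). In that comparison 0.819% of all genes tested had groups without overlap, and 0.359% had them with OKO lower. All 11 HSC markers listed had a mean of at least 1 CPM in each group. So did all 8 erythroid, 7 granulocyte and 6 megakaryocyte markers listed, so this level does not tell HSCs from other cells. Titles of the 4 OWT and of OKO4 to OKO7 carry the prefix IB15 and those of YWT, YKO and OKO1 to OKO3 do not, so age in wild type and the title prefix cannot be told apart. Y-linked transcripts were counted at 105 to 224 CPM in 7 of the 19 libraries labelled female (YWT3, YWT4, OWT2, YKO3, YKO4, OKO1 and OKO5) and at most at 0.126 CPM in the other 12. The female label of these 7 is thus at odds with their counts, and the study's methods name mice of both sexes. OKO1 had a count in the most genes, 47901, and YKO1 in the fewest, 31266.

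Levels were first compared between the 10 genes as CPM per kb of exon, averaged over the 19 libraries. Ndn (21.7 ± 9.46 CPM per kb, SD, n = 19) and Grb10 (16.7 ± 2.78) were the most abundant, and their levels per kb lay above those of 90.6% and 87.9% of the genes with a known length. Dlk1 (6.02 ± 15.8) and Igf2r (4.57 ± 1.28) followed, then Mest (0.907 ± 0.220), Meg3 (0.875 ± 1.04), Rian (0.285 ± 0.226), H19 (0.231 ± 0.194), Peg3 (0.222 ± 0.159) and Igf2 (0.0428 ± 0.0222). The place of Dlk1 above Igf2r rests on OKO5, since without that library Dlk1 was at 2.44 ± 2.59 CPM per kb (SD, n = 18) and Igf2r at 4.47 ± 1.24, and the medians over all 19 were 1.69 and 4.17 CPM per kb. Between neighbours in the order of the means over all libraries, the gap in the mean level per kb was wider than the sum of both SDs for Igf2r and Mest, and for no other pair. Igf2 was counted with 1 to 27 reads per library and H19 with 0 to 141, so small differences in these 2 genes were not detectable at this depth. The growth factor transcript Igf2 was therefore close to the limit of counting, while its receptor Igf2r was counted with 996 to 4084 reads.

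The genes were compared between groups with the edgeR quasi-likelihood test over all 33690 genes, and a gene was called at a Benjamini-Hochberg adjusted p under 0.05 with a fold change over 1.5. Of the 10 genes, 1 was called in OKO vs YKO, Peg3, which was higher in OKO. The share of all genes called in this comparison was 1.29%, with 0.597% called higher and 0.692% lower. In YKO vs YWT (0.0267% of all genes called), OWT vs YWT (0.00297%) and OKO vs OWT (0.0327%), 0 of the 10 genes were called by edgeR. At an unadjusted edgeR p under 0.05 the number of the 10 genes was 1 in OWT vs YWT, 1 in YKO vs YWT, 5 in OKO vs YKO and 2 in OKO vs OWT, beside 4.38%, 4.59%, 15.8% and 8.14% of all genes. DESeq2 called 0 of the 10 in OWT vs YWT, 1 in YKO vs YWT, 5 in OKO vs YKO and 0 in OKO vs OWT, beside 0.401%, 0.404%, 6.3% and 0.217% of all genes called by it. The comparisons share groups of libraries, as YKO enters both YKO vs YWT and OKO vs YKO, and their values are not independent of each other.

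**Figure D1:**
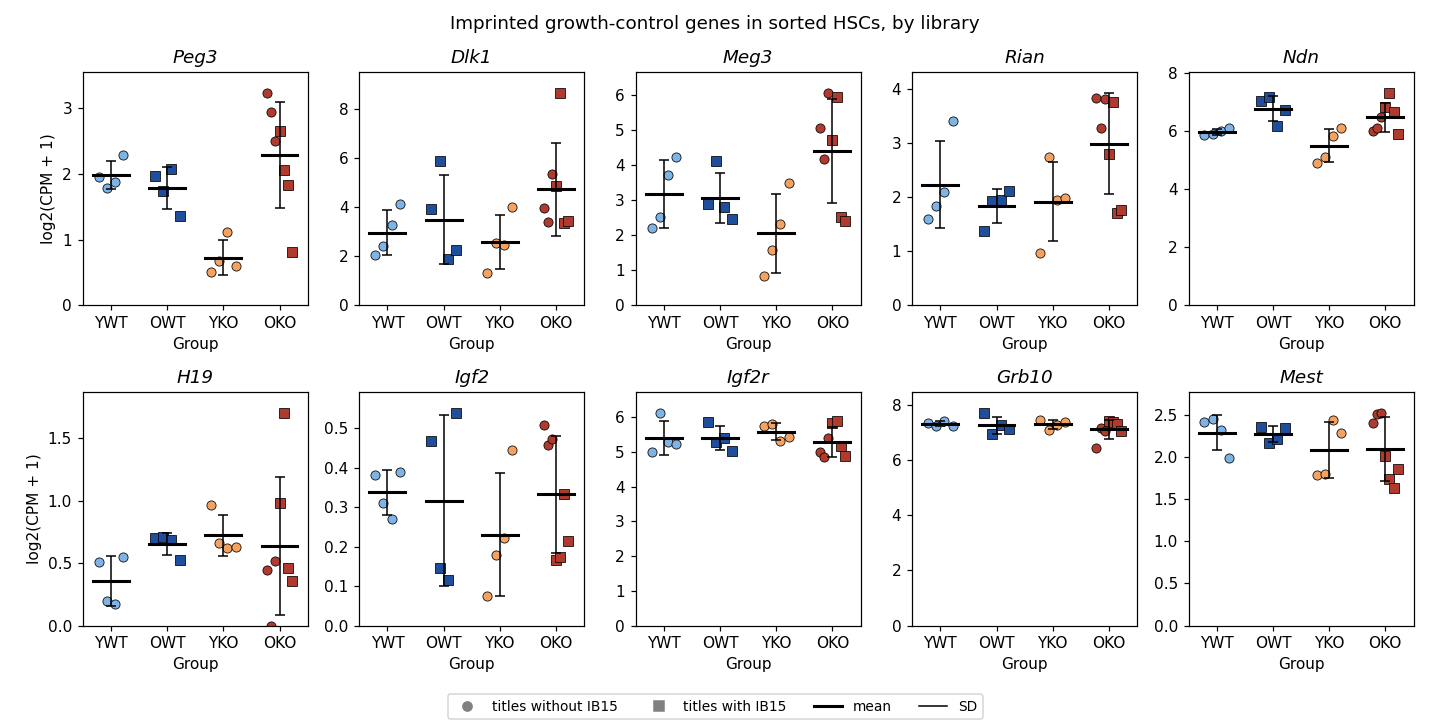
The log2(CPM + 1) of each of the 10 genes (vertical axis, own scale per panel) is plotted for the 19 libraries by group, with the mean and SD of each group; circles are libraries without and squares libraries with the IB15 title prefix. Peg3 was at 0.426 to 1.17 CPM in the 4 YKO libraries, a range that also held OKO7 (0.764 CPM), and Dlk1 reached 399 CPM in 1 OKO library.

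Peg3, a paternally expressed zinc finger gene (ENSMUSG00000002265.16, mm10 chromosome 7, 6703892 to 6730431, minus strand), showed the clearest difference between groups. Its level was 2.88, 2.46, 2.68 and 3.86 CPM in YWT1 to YWT4 and 2.92, 2.34, 3.22 and 1.57 CPM in OWT1 to OWT4. In YKO1 to YKO4 it was 0.426, 0.602, 1.17 and 0.514 CPM, from 8 to 56 reads, and in OKO1 to OKO7 it was 8.38, 6.68, 4.63, 5.28, 3.16, 2.55 and 0.764 CPM. The 4 YKO libraries were thus all below the 4 YWT libraries, and 6 of the 7 OKO libraries were above all YKO libraries, OKO7 being the exception. OKO vs YKO gave a log2 fold change of 2.71 (SE 0.50, edgeR adjusted p = 0.00786), that is 4.49 ± 2.58 CPM (SD, n = 7) against 0.677 ± 0.335 CPM (SD, n = 4). The exact permutation test over these 11 libraries gave a two-sided p of 0.0121 on log2(CPM + 1), which was 0.191 after Benjamini-Hochberg adjustment over the 40 tests of 10 genes in 4 comparisons.

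The lower Peg3 level in YKO was not called against YWT. The fold change of Peg3 there was -2.11 on the log2 scale (SE 0.52), with an edgeR p of 0.000502 before and 0.286 after adjustment over all genes. Groups that did not overlap, as for Peg3 here, were seen for 5.12% of all genes tested in YKO vs YWT (2.12% higher and 3.01% lower), and for Peg3 (lower) and H19 (higher) among the 10. The age difference in knockout minus that in wild type, the genotype by age interaction, was 2.95 on the log2 scale (SE 0.69, edgeR adjusted p = 0.811), and 0.0% of all genes were called for it by edgeR. DESeq2 called Peg3 both in YKO vs YWT (log2 fold change -2.11, adjusted p = 0.0141) and for the interaction (3.10, adjusted p = 0.0248), for which it called 0.0208% of all genes.

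Within the libraries without the title prefix, Peg3 was at 6.56 ± 1.88 CPM in OKO1 to OKO3 (SD, n = 3) and 0.677 ± 0.335 CPM in YKO (SD, n = 4), without overlap (exact permutation p = 0.0286, the smallest that 3 against 4 can give, and 0.114 adjusted over the 10 genes). Within the libraries with the prefix, Peg3 was at 2.94 ± 1.86 CPM in OKO4 to OKO7 and 2.51 ± 0.725 CPM in OWT (SD, n = 4 each), and the groups overlapped (exact permutation p = 0.886). For this and all later comparisons by title prefix, the share of all genes without overlap was not counted. With OKO of 1 title prefix only, edgeR called 17.9% of all genes in OKO vs YKO and 0.0801% in OKO vs OWT. The OKO vs YKO call on Peg3 was lost without YKO1, the shallowest library (adjusted p = 0.0505), in a fit of the 2 groups alone (0.0615) and without OKO1, OKO2, OKO3, YWT4 and YKO2, the 5 libraries lowest on the first principal component of all libraries (0.114). The log2 fold change was 2.60, 2.74 and 2.03 in these fits.

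The promoter window of Peg3 is shown because Peg3 was the gene called, and those of Dlk1, Meg3 and Ndn because these genes had the next highest fold changes or lowest p-values in OKO vs YKO. The sequences are RefSeq windows on GRCm38.p6, the assembly also named mm10, of 250 bases before to 50 after the start of transcription. They read from 5' to 3' on the strand of the gene, and capitals mark CpG, the dinucleotide that carries most DNA methylation.
Peg3 promoter, chr7:6730370-6730669, minus strand: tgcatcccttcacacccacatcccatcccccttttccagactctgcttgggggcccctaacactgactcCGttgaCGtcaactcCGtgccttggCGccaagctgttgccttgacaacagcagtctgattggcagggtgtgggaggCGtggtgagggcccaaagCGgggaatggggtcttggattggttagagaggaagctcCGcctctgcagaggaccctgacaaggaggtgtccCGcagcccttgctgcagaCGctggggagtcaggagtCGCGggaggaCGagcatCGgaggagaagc
Dlk1 promoter, chr12:109452573-109452872, plus strand: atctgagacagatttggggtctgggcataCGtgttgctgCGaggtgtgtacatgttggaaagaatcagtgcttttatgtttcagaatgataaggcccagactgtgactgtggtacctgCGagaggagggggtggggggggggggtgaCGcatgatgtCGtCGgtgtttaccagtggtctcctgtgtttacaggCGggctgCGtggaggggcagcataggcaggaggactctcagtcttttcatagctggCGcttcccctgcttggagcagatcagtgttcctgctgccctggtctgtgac
Meg3 promoter, chr12:109540746-109541045, plus strand: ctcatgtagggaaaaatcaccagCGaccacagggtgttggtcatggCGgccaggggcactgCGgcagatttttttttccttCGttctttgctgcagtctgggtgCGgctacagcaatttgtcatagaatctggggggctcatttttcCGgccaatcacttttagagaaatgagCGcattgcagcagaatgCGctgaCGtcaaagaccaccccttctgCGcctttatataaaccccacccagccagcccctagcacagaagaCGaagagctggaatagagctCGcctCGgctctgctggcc
Ndn promoter, chr7:62348027-62348326, plus strand: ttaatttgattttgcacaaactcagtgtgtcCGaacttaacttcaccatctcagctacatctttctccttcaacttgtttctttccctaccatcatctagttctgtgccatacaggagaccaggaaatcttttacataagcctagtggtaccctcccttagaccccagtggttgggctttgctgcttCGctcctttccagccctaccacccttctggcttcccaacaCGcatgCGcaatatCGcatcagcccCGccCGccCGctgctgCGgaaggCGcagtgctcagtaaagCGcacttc
These windows held 13 CpG in Peg3, 9 in Dlk1, 13 in Meg3 and 11 in Ndn, beside a median of 7 over 32851 windows of the same length. The motif TGACGTCA, a palindrome known as the cAMP response element, is the same on both strands and was looked for after these sequences had been seen. It was present in the Peg3 window and the first Meg3 window, starting 178 and 57 bases before the start site, and in 1.79% of all windows. Windows were listed for 9 of the 10 genes, 16 windows in all, and the motif was in no other of these 16. The window of Rian held 0 CpG, and the first window of Grb10 held the most of the 16, 45.

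Dlk1, Meg3 and Rian lie in 1 imprinted cluster on chromosome 12, with Dlk1 (109452823 to 109463336) expressed from the paternal copy and Meg3 (109541001 to 109571726) and Rian (109603940 to 109661716) from the maternal one. All are on the plus strand of mm10. Dlk1 encodes a membrane protein with EGF-like repeats related to Notch ligands, Meg3 is a long non-coding RNA, and Rian is a long non-coding RNA that hosts small nucleolar RNAs. All of them had higher mean levels in OKO than in YKO, and edgeR called none of the 3 in any of the 4 comparisons.

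Dlk1 was the most variable of the 10 genes, with a 268-fold range over the 19 libraries. It was at 3.17, 4.29, 8.58 and 16.6 CPM in YWT1 to YWT4, 14.2, 57.5, 2.76 and 3.77 CPM in OWT1 to OWT4 and 1.49, 4.76, 4.54 and 14.9 CPM in YKO1 to YKO4. In OKO1 to OKO7 it was 14.9, 9.54, 40.4, 28.1, 399, 9.39 and 9.83 CPM. All 7 OKO libraries lay above the YKO median, but YKO4 lay within the OKO range, and OKO5 stood far above OKO3, the next highest OKO library. The log2 fold change in OKO vs YKO was 3.49 (SE 1.15, edgeR adjusted p = 0.136), with an exact permutation p of 0.0606, and it fell to 1.53 (edgeR adjusted p = 0.300) without OKO5. Dlk1 was called in this comparison by DESeq2 (adjusted p = 0.0119) and by edgeR with the Y-linked counts as a covariate (0.0278).

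In OKO vs OWT the log2 fold change of Dlk1 was 1.90 (SE 1.05, edgeR adjusted p = 0.592), and without OKO5 it turned to -0.06. In OWT vs YWT it was 1.26 (SE 1.11, edgeR adjusted p = 1.00), and without OWT2, at 57.5 CPM, it was -0.25. OKO5 and OWT2 are both among the 7 libraries with Y-linked counts, and so are YWT3 and YWT4, the highest of YWT, and YKO4, the highest of YKO. In each of the 4 groups the library with the highest Dlk1 level had Y-linked counts, while OKO1 and YKO3, which also had them, were in the middle of their groups. The part of these counts in the group differences of Dlk1 was not tested beyond the covariate fit.

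Meg3 was at 3.62, 4.75, 12.3 and 18.0 CPM in YWT1 to YWT4, 6.51, 16.3, 6.01 and 4.59 CPM in OWT1 to OWT4 and 0.798, 1.98, 4.00 and 10.2 CPM in YKO1 to YKO4. In OKO1 to OKO7 it was 32.4, 17.1, 66.1, 25.3, 61.4, 4.81 and 4.30 CPM. OKO1 to OKO5 lay above every YKO library, and OKO6 and OKO7 lay within the YKO range. The log2 fold change in OKO vs YKO was 2.81 (SE 0.77, edgeR adjusted p = 0.0715), and the exact permutation p was 0.0273 (0.191 adjusted over the 40 tests). It was called by edgeR with upper-quartile normalization, without a filter on counts, with a mean CPM of at least 1, with the title prefix, Y-linked counts or the replicate number in the model, and with OKO1 to OKO3 alone, as well as by DESeq2, at adjusted p from 0.00360 to 0.0448, and in edgeR without YKO4 (0.0388) or without OKO7 (0.0206). These were 10 of 30 alternatives. Meg3 was not called by edgeR in a fit of the 2 groups alone (adjusted p = 0.161) or without YKO1 (0.234). Nor was it called without the 5 libraries lowest on the first principal component (0.293). With the title prefix or with OKO1 to OKO3 alone, 19.1% and 17.9% of all genes were called. The interaction of Meg3 was 3.02 on the log2 scale (SE 1.06, edgeR adjusted p = 0.811).

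Meg3 shares 6.79% of its exon length with Gm26906, a transcript on the opposite strand, and whether the counts used strand is not given in the sources used here. Within the libraries without the prefix Meg3 was at 38.5 ± 25.0 CPM in OKO (SD, n = 3) and 4.25 ± 4.20 CPM in YKO (SD, n = 4), without overlap (exact permutation p = 0.0571, 0.114 adjusted over the 10 genes). Within those with the prefix it was at 24.0 ± 26.8 CPM in OKO and 8.36 ± 5.38 CPM in OWT (SD, n = 4 each), which overlapped (exact permutation p = 0.429).

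Rian was at 2.03, 2.58, 3.28 and 9.60 CPM in YWT1 to YWT4, 1.61, 2.83, 2.85 and 3.32 CPM in OWT1 to OWT4 and 0.958, 5.72, 2.88 and 2.98 CPM in YKO1 to YKO4. In OKO1 to OKO7 it was 13.3, 8.66, 13.1, 5.92, 12.5, 2.27 and 2.41 CPM. As for Meg3, OKO1 to OKO5 lay above every YKO library and OKO6 and OKO7 within their range. Rian had a log2 fold change of 1.39 in OKO vs YKO (SE 0.54, edgeR adjusted p = 0.205). It was called there by DESeq2 (adjusted p = 0.0391) and by edgeR with the title prefix (0.0319) or the replicate number (0.0418) in the model and with OKO1 to OKO3 alone (0.0196). These were 4 of 30 alternatives. Against the old wild type, OKO vs OWT, the log2 fold change of Rian was 1.65 (SE 0.55, edgeR adjusted p = 0.592). Mirg, a microRNA host of the same cluster that is not among the 10 genes, was at 0.213 to 1.39 CPM in YKO and 0.298 to 3.99 CPM in OKO, with a log2 fold change of 1.28 (SE 0.73, edgeR adjusted p = 0.399).

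Across the 19 libraries the levels of these 3 genes moved together on the log2(CPM + 1) scale. The libraries also differed in depth and in the number of genes with a count, and the part of this in each correlation was not tested. Dlk1 with Meg3 gave Pearson r = 0.83 and Spearman rho = 0.81 (permutation p = 1e-05, the smallest that 100000 permutations can give, and 6e-05, adjusted over 4 pairs 4e-05 and 0.00024). Meg3 with Rian gave r = 0.82 and rho = 0.72 (permutation p = 2e-05 and 0.00057, adjusted 4e-05 and 0.00114), and Dlk1 with Rian gave r = 0.60 and rho = 0.54 (permutation p = 0.00509 and 0.0188, adjusted 0.00679 and 0.0231). Without OKO5 and OWT2, the libraries farthest from the median of Dlk1, r was 0.86 for Dlk1 with Meg3 and 0.65 for Dlk1 with Rian, and without OKO3 and OKO5 r was 0.72 for Meg3 with Rian.

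The relations were then taken within the title prefixes. In the 11 libraries without the prefix r was 0.94, 0.84 and 0.82 for Dlk1 with Meg3, Meg3 with Rian and Dlk1 with Rian, and rho was 0.86, 0.85 and 0.85. In the 8 libraries with the prefix r was 0.91, 0.88 and 0.75 (exact permutation p = 0.00412, 0.00980 and 0.0430, adjusted 0.0165, 0.0196 and 0.0573), and rho was 0.76, 0.50 and 0.29, so the rank relation of Rian with the other genes did not hold there (exact permutation p = 0.216 with Meg3 and 0.501 with Dlk1). With each library taken as its deviation from its group mean, r remained 0.77 for Dlk1 with Meg3, 0.77 for Meg3 with Rian and 0.47 for Dlk1 with Rian, and rho was 0.81, 0.67 and 0.38, the last with a permutation p of 0.112.

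**Figure D2:**
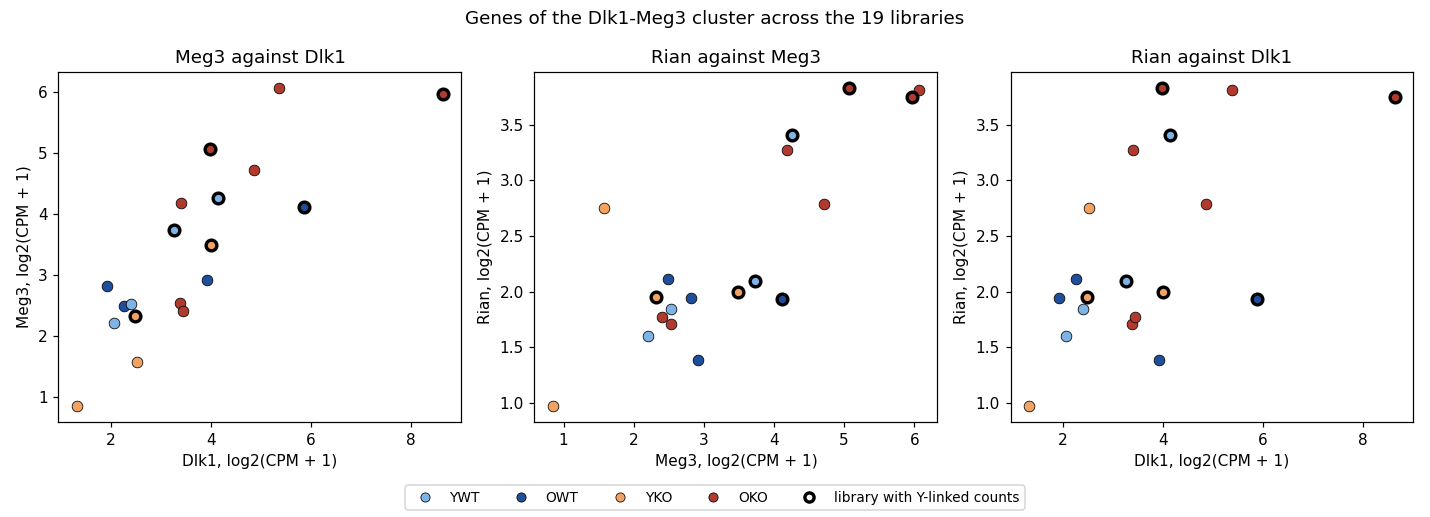
Levels of Dlk1, Meg3 and Rian are plotted against each other as log2(CPM + 1), 1 point per library, coloured by group, with a heavy outline for the 7 libraries with Y-linked counts. Meg3 rose with Dlk1 (r = 0.83 over 19 libraries), and the OKO library at the far right of the Dlk1 axes is OKO5.

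Ndn encodes necdin, a paternally expressed protein of the MAGE family that is known to restrain cell division (ENSMUSG00000033585.5, mm10 chromosome 7, 62346569 to 62350262, plus strand). It was at 57.5, 59.0, 62.1 and 67.7 CPM in YWT1 to YWT4 and 130, 141, 71.3 and 103 CPM in OWT1 to OWT4. In YKO1 to YKO4 it was 28.9, 33.6, 55.8 and 68.3 CPM, and in OKO1 to OKO7 it was 63.1, 67.3, 88.2, 113, 156, 99.2 and 58.7 CPM. The lowest OWT library lay above the highest YWT library, and groups without overlap were seen for 4.13% of all genes in either direction and 2.24% higher. Ndn had a log2 fold change of 0.86 in OWT vs YWT (SE 0.31, edgeR adjusted p = 0.820), and the exact permutation p was 0.0286, the smallest that 4 against 4 can give. With the title prefix in the model it was 0.31. OKO is the only group with both kinds of title, so the prefix term rests on OKO alone. This value therefore does not separate age from prefix in wild type.

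In the knockout, OKO3 to OKO6 lay above every YKO library and YKO4 lay among the lowest OKO libraries. For Ndn, OKO vs YKO gave a log2 fold change of 0.98 (SE 0.28, edgeR adjusted p = 0.0853, exact permutation p = 0.0182). It was called by DESeq2 (adjusted p = 0.00282) and, in edgeR, without YKO4 (0.0468), without OKO7 (0.0301), without a filter on counts (0.0454), with a mean CPM of at least 1 (0.0111), with upper-quartile normalization (0.0140) and with the Y-linked covariate (0.0270). These were 7 of 30 alternatives. Ndn was not called by edgeR with the title prefix (adjusted p = 0.133) or the replicate number (0.0735) in the model. Nor was it called in a fit of the 2 groups alone (0.200). The age differences in Ndn did not differ detectably between genotypes (interaction 0.13 on the log2 scale, SE 0.41, edgeR adjusted p = 0.935).

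H19 and Igf2 are neighbours on chromosome 7 (142575529 to 142578143 and 142650766 to 142666816, both on the minus strand of mm10), with the non-coding RNA H19 made from the maternal copy and the growth factor Igf2 from the paternal one. H19 was at 0.427, 0.145, 0.126 and 0.464 CPM in YWT1 to YWT4, 0.623, 0.639, 0.607 and 0.436 CPM in OWT1 to OWT4 and 0.958, 0.583, 0.542 and 0.548 CPM in YKO1 to YKO4. In OKO1 to OKO7 it was 0.363, 0, 0.434, 0.980, 2.25, 0.373 and 0.281 CPM, where the count of 0 in OKO2 allows up to 0.0558 CPM (3 counts, counting error only). Every YKO value was higher than every YWT value, and YKO vs YWT gave a log2 fold change of 1.16 (SE 0.88, edgeR adjusted p = 1, exact permutation p = 0.0286). Within the libraries without the prefix, OKO1 to OKO3 lay below all YKO libraries (0.266 ± 0.233 CPM, n = 3, against 0.658 ± 0.201 CPM, n = 4, exact permutation p = 0.0286, 0.114 adjusted over the 10 genes), while over all 7 OKO libraries the log2 fold change was 0.04 (SE 0.76).

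Igf2 was at 0.205 to 0.309 CPM in YWT, 0.084 to 0.452 CPM in OWT, 0.053 to 0.360 CPM in YKO and 0.123 to 0.423 CPM in OKO. Over all libraries these ranges overlapped in every comparison, with log2 fold changes from -0.52 in YKO vs YWT (SE 0.75) to 0.52 in OKO vs YKO (SE 0.68). Within the libraries without the prefix, OKO1 to OKO3 were above all YKO libraries in Igf2 (0.394 ± 0.0262 CPM, n = 3, against 0.178 ± 0.130 CPM, n = 4, exact permutation p = 0.0571, 0.114 adjusted over the 10 genes). Igf2 shares 62.8% of its exon length with Gm49394, a gene on the same strand, so reads of the 2 may be divided between them. H19 and Igf2 gave r = -0.46 and rho = -0.52 over the 19 libraries (permutation p = 0.0399 and 0.0231), and without OKO2 and OKO5 r was -0.39 and rho -0.44 (n = 17, permutation p = 0.120 and 0.0782), so the relation was of similar size but no longer passed the threshold. Within the title prefixes r was -0.49 without the prefix (n = 11, permutation p = 0.129) and -0.36 with it (n = 8, exact permutation p = 0.410).

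Igf2r, the maternally expressed receptor that removes IGF2 from the cell surface for degradation (chromosome 17, 12682406 to 12769664, minus strand), was at 30.9, 68.2, 37.6 and 36.1 CPM in YWT1 to YWT4 and 57.1, 38.3, 41.0 and 31.6 CPM in OWT1 to OWT4. It was at 53.0, 55.2, 38.8 and 42.4 CPM in YKO1 to YKO4 and 30.9, 28.1, 41.5, 55.6, 58.7, 34.6 and 28.4 CPM in OKO1 to OKO7. The groups overlapped in all 4 comparisons, with log2 fold changes between -0.25 and 0.13. The 95% interval of OKO vs YKO ran from -0.74 to 0.23 on the log2 scale, and that of OKO vs OWT from -0.57 to 0.41.

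Grb10 encodes an adaptor protein that restrains signalling by the insulin and IGF1 receptors (chromosome 11, 11930508 to 12038683, minus strand). Its level was the steadiest of the 10, with an SD of 16.7% of the mean over the 19 libraries. It was at 150 to 171 CPM in YWT, 124 to 207 CPM in OWT, 135 to 174 CPM in YKO and 85.0 to 172 CPM in OKO, the lowest library being OKO1. The log2 fold changes of Grb10 lay between -0.16 and -0.01. Their 95% intervals reached down to -0.53, in OKO vs YKO, and up to 0.41, in YKO vs YWT.

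Mest, a paternally expressed gene of the alpha/beta hydrolase family (chromosome 6, 30723547 to 30748465, plus strand), was at 4.33, 4.44, 3.97 and 2.96 CPM in YWT1 to YWT4 and 4.13, 3.48, 3.62 and 4.07 CPM in OWT1 to OWT4. It was at 2.45, 2.48, 4.40 and 3.87 CPM in YKO1 to YKO4 and 4.29, 4.67, 4.73, 3.04, 2.33, 2.11 and 2.61 CPM in OKO1 to OKO7. The OKO libraries split by title, OKO1 to OKO3 lying above OKO4 to OKO7. Within the IB15 libraries OKO was below OWT without overlap (2.52 ± 0.401 against 3.83 ± 0.323 CPM, SD, n = 4 each, exact permutation p = 0.0286, 0.286 adjusted over the 10 genes), while over all OKO libraries the log2 fold change in OKO vs OWT was -0.17 (SE 0.28). Mest shares 23.1% of its exon length with Copg2 on the opposite strand, and Copg2 had a log2 fold change of -0.05 in that comparison (SE 0.17).

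**Figure D3:**
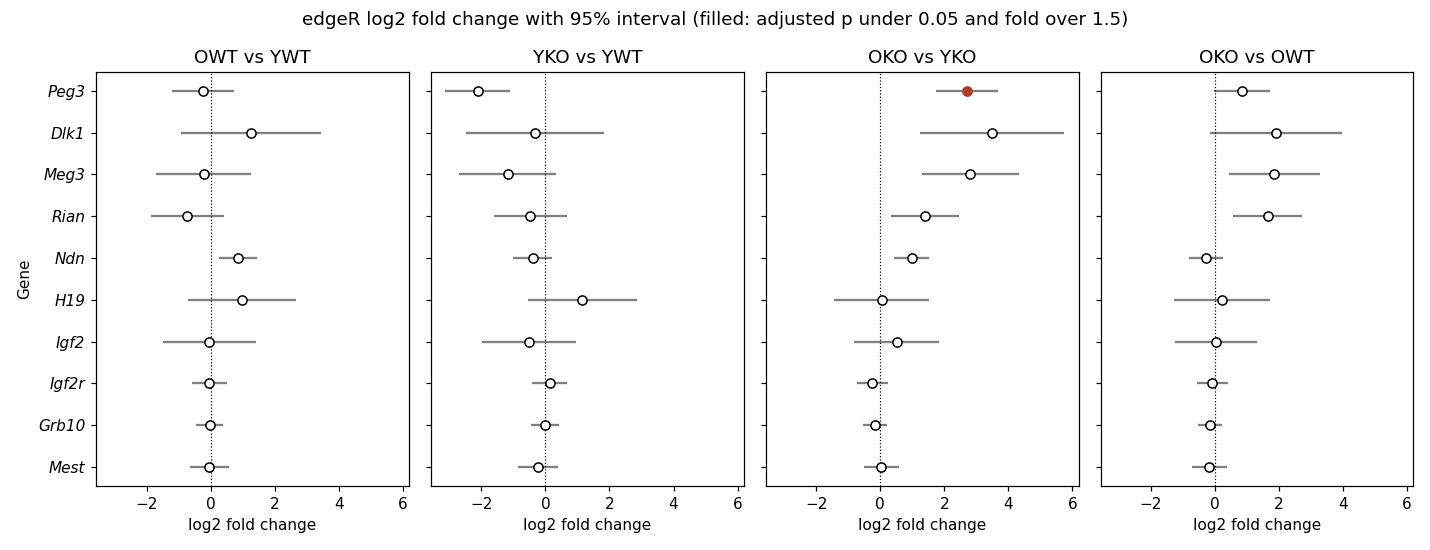
The edgeR log2 fold change of each gene (points) is plotted with its 95% interval (lines) in the 4 comparisons. The filled point, Peg3 in OKO vs YKO at 2.71, is the single call, and the intervals of Dlk1, Meg3, Rian and Ndn also lay above 0 in that comparison.

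The direction of the 10 genes was read against all genes tested. In OKO vs YKO 8 of the 10 had a log2 fold change above 0, with a median of 0.75, beside a median of 0.23 over all genes, of which 20808 of 33690 were above 0. In YKO vs YWT 8 of the 10 were below 0, with a median of -0.37, beside -0.02 over all genes. The medians were -0.04 in OWT vs YWT and 0.13 in OKO vs OWT, beside -0.05 and 0.12 over all genes. Upper-quartile normalization moved the median of all genes in OKO vs YKO up by 0.20 on the log2 scale, and Peg3, Dlk1, Meg3, Rian and Ndn had log2 fold changes above 0 with it as well.

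Other imprinted genes were taken as a list of 38, of which 35 were tested. In OKO vs YKO 2 of the 35 were called, both lower in OKO, beside 1.29% of all genes called and 0.692% called lower. The median log2 fold change over the list was 0.35. Slc22a3, a cation transporter gene next to Igf2r, was at 47.2 ± 28.4 CPM in OKO (SD, n = 7) and 153 ± 31.4 CPM in YKO (SD, n = 4), with a log2 fold change of -1.70 (SE 0.40, edgeR adjusted p = 0.0334). Nespas, an antisense transcript of the Gnas locus, was at 0.807 ± 0.440 CPM in OKO and 3.54 ± 1.52 CPM in YKO, with a log2 fold change of -2.13 (SE 0.52, edgeR adjusted p = 0.0438). For both genes all 7 OKO libraries lay below all YKO libraries, which held in either direction for 2.6% of all genes. The Slc22a3 call held in 14 of 19 edgeR fits that left out 1 library and was lost without YKO1 (adjusted p = 0.159), YKO3 (0.0656), OKO1 (0.0506), OKO5 (0.0566) or OKO6 (0.0563). The Nespas call held in 6 of these 19 fits, those without YWT1, OWT1, OWT3, OKO1, OKO2 or OKO7, and in 10 of 30 alternatives in all, with adjusted p up to 0.186 without YKO3.

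In the other 3 comparisons edgeR called 0 of the 35. At an unadjusted edgeR p under 0.05 there were 6 in OWT vs YWT, 2 in YKO vs YWT and 8 in OKO vs OWT. The shares of all genes at that p were 4.38%, 4.59% and 8.14%. The lowest p-values belonged to Zrsr1 (log2 fold change 2.16, adjusted p = 0.298) and Nnat (1.88, 0.790) in OWT vs YWT. In YKO vs YWT they belonged to Sgce (-0.61, 0.830) and Nespas (1.56, 0.916), and in OKO vs OWT to Zrsr1 (-1.82, 0.411) and Rtl1 of the Dlk1-Meg3 cluster (2.24, 0.592), all adjusted by edgeR. The Zrsr1 level of OWT was 12.6 ± 16.8 CPM (SD, n = 4) with a highest library of 37.8 CPM, beside 2.81 ± 0.408 CPM in YWT.

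Of 21 genes of IGF and insulin signalling, all tested, edgeR called 0 in each of the 4 comparisons. At an unadjusted edgeR p under 0.05 there were 4 in OKO vs YKO, 2 in OWT vs YWT, 1 in YKO vs YWT and 2 in OKO vs OWT. The shares of all genes at that p were 15.8%, 4.38%, 4.59% and 8.14%. DESeq2 called 4 of the 21 in OKO vs YKO, where it called 6.3% of all genes, and 0 in the other 3. In OKO vs YKO the lowest p-values were those of Igfbp7, an IGF binding protein (log2 fold change -1.11, SE 0.31, edgeR adjusted p = 0.0784), and Pik3r1, a regulatory subunit of PI3 kinase (0.75, SE 0.24, 0.118). Igf1, the other IGF ligand, was at 4.21 ± 1.36 CPM in OWT and 8.30 ± 1.16 CPM in YWT (SD, n = 4 each), with all OWT libraries below all YWT libraries (log2 fold change -0.98, SE 0.38, edgeR adjusted p = 0.976), and Igf1r was at 98.1 ± 29.7 and 68.5 ± 7.10 CPM (0.52, SE 0.22, 1.00). Groups without overlap were seen for 4.13% of all genes in OWT vs YWT, and for 1.9% with OWT lower. In YKO vs YWT the lowest p-values were those of Pik3r1 (-0.59, edgeR adjusted p = 1) and Igfbp7 (0.67, 1), and in OKO vs OWT those of Igfbp4 (-0.75, 0.592) and Irs1 (1.15, 0.592).

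Of 18 genes listed for imprint maintenance, all tested, edgeR called 1, in OKO vs YKO, where it called 1.29% of all genes. The list is broader than genes that keep or set imprints, as it also holds Tet1, Tet2, Tet3, Ezh2, Eed and Suz12. Dnmt1, which copies CpG methylation onto the new strand at replication, was at 235 ± 87.1 CPM in OKO (SD, n = 7) and 498 ± 75.6 CPM in YKO (SD, n = 4), with a log2 fold change of -1.08 (SE 0.25, edgeR adjusted p = 0.0332). All 7 OKO libraries lay below all YKO libraries, and no YKO library was as low as any YWT library (log2 fold change 0.62, SE 0.29, edgeR adjusted p = 1). Groups without overlap in either direction were seen for 2.6% of all genes in OKO vs YKO and 5.12% in YKO vs YWT. The Dnmt1 call held in 24 of 30 alternatives and was lost in edgeR without YKO1 (adjusted p = 0.159), YKO3 (0.0655), OKO3 (0.0604) or OKO6 (0.0591), in a fit of both groups alone (0.135) and without the 5 libraries lowest on the first principal component (0.0549). In OKO vs YKO 12 of the 18 had an unadjusted p under 0.05, beside 15.8% of all genes, and the median log2 fold change of the list was -0.39. In the other comparisons the lowest p-values belonged to Smchd1 and Zfp445 in OWT vs YWT (log2 fold changes -0.50 and -0.39), Zfp445 in YKO vs YWT (-0.56) and Ctcf and Suz12 in OKO vs OWT (-0.36 and -0.33), none of them called.

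The summed levels of markers of other cells were set beside these values without a test, and for every list the ranges of YKO and OKO overlapped. The summed level of 8 erythroid markers was 1609 to 4693 CPM in YKO and 35.6 to 2509 CPM in OKO, beside 661 to 2030 CPM in YWT and 170 to 916 CPM in OWT, and that of 7 B cell markers was 190 to 1452 CPM in YKO and 27.3 to 195 CPM in OKO. The 6 T cell markers summed to 24.8 to 113 CPM in YKO and 8.33 to 41.0 CPM in OKO, and 7 granulocyte markers to 8.99 to 276 CPM in YKO and 29.8 to 312 CPM in OKO. Megakaryocyte markers (6) summed to 679 to 1275 CPM in YKO and 460 to 1349 CPM in OKO (medians 823 and 875 CPM), and endothelial markers (4) to 58.9 to 106 CPM and 27.4 to 78.1 CPM. The 9 stromal markers, taken because Dlk1, H19, Igf2, Meg3 and Peg3 are known from stromal cells, summed to 39.4 to 75.9 CPM in YKO and 33.5 to 86.9 CPM in OKO, and none of the marker lists had a gene at 0 in all libraries. Of the stromal markers Sparc was called in OKO vs YKO, at 1.81 ± 1.01 CPM in OKO (SD, n = 7) and 10.2 ± 3.63 CPM in YKO (SD, n = 4), with a log2 fold change of -2.50 (SE 0.38, edgeR adjusted p = 0.00149), a call lost without the 5 libraries lowest on the first principal component (0.0599). Of the 8 stromal markers tested, 6 had a log2 fold change above 0 in OKO vs YKO, as Peg3 had, with a median of 0.69, beside 0.23 over all genes. Col1a1, Col3a1, Pdgfra, Cxcl12 and Lepr were each highest of the 19 libraries in OKO1, at 3.69 to 4.77 CPM, and Peg3 was also highest in OKO1. Col1a2 and Sparc were instead highest in YKO libraries, at 41.7 and 15.6 CPM. The sum of the 9 markers in OKO1, 57.5 CPM, was below that in OKO5 (86.9 CPM) and YKO1 (75.9 CPM). OKO1 was also the library with a count in the most genes. The part of these cells in the differences of Peg3, Dlk1, Meg3 and Rian was not tested.

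For the 8 of the 10 genes with a mean of at least 1 CPM, the 3 most similar patterns over the 19 libraries were sought among 17296 genes by Pearson r of log2(CPM + 1), as a description. For Peg3 these were Ppp1r9a (r = 0.92), an imprinted gene near Peg10 and Sgce, Ago3 (0.90) and Gm37818 (0.90). For Dlk1 they were Itgb3 (0.93), Acvr1b (0.93) and Scgb3a1 (0.93), for Meg3 its antisense neighbour Gm26906 (0.96), Sema7a (0.91) and Mir155hg (0.88), and for Rian Gm37899 (0.89), Sfxn5 (0.87) and Plat (0.86). Gm26906 overlaps 6.79% of the exon length of Meg3. How reads of that stretch were counted is not given, so this r may not compare separate transcripts. Ndn had the closest likenesses of the 8, with Krt18 (0.98), Efna1 (0.98) and Npdc1 (0.98). Igf2r was most like Znrf3 (0.88), Sec16a (0.85) and Ube2h (0.85), Grb10 most like Trmt1l (0.88), Sfswap (0.85) and Cog4 (0.84), and Mest most like Zfp987 (0.81), Fam171b (0.74) and Stard6 (0.73). These libraries share group, title prefix and depth, which enter each r.

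**Figure D4:**
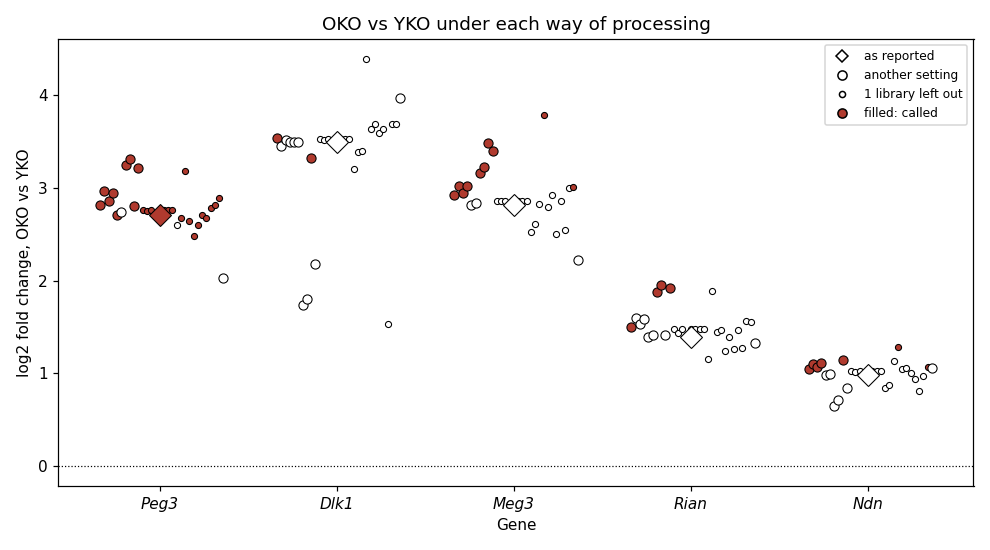
The OKO vs YKO log2 fold change of 5 genes is plotted for the values reported (diamonds), other settings (circles) and fits that leave out 1 library (small points), filled where the gene was called. Peg3 was called in 27 of 30 alternatives, Meg3 in 10, Ndn in 7, Rian in 4 and Dlk1 in 2, and the Dlk1 values spread from 1.53 to 4.39. The alternatives are not independent, as the adjusted p alone repeats the reported fit. Those without a YWT or OWT library keep all OKO and YKO libraries.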

How the data were processed

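The 19 RNA-seq libraries used here were made with the SMART-Seq v4 kit from sorted HSCs, while bisulfite sequencing samples were left out. Before deposit, the authors used Trim Galore 0.4.3 with cutadapt for trimming, STAR for alignment to mm10 and featureCounts for counting, and the deposited values are raw counts per gene symbol, without normalization. Whether strand was used or read mates were counted singly is not given in the sources used here, so overlapping genes carry extra uncertainty. Samples were grouped by their titles.

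With R 4.3.3, edgeR 4.0.16 and limma 3.58.1, counts were filtered with filterByExpr and scaled by TMM, and the quasi-likelihood test was fitted on all 19 libraries together, each group having its own mean, without covariates. Adjusted p-values are Benjamini-Hochberg values over the 33690 genes. The study's methods name DESeq2, which was run here as an alternative (1.42.0). Exact permutation tests were two-sided on log2(CPM + 1). Intervals at 95% use the SE of the log2 fold change. CPM are TMM-scaled, and lengths and positions come from GENCODE M21 (mm10), which held 54510 of the 55376 symbols. Promoter windows are from RefSeq (GRCm38.p6). Tested on data simulated for OKO vs YKO with 200 genes changed 4-fold among 32554, edgeR called 167 of them and 5 others.

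Alternatives were DESeq2, the adjusted p without the fold threshold, the compared groups only, upper-quartile normalization, all genes unfiltered, genes with a mean of 1 CPM or more, the title prefix, Y-linked counts or replicate number in the model, OKO of 1 title prefix, and leaving out each library. For OKO vs YKO, fits without a YWT or OWT library keep both compared groups whole. Counts of alternatives with a call are therefore not counts of independent checks. Leaving out 5 libraries, and levels per kb without OKO5, were added after seeing the data. The 10 genes and all lists were chosen with earlier results of these data known. Named genes are the 10, every called gene of the other lists or otherwise up to 2 per list and comparison with the lowest p, and for each of the 10 with a mean of at least 1 CPM the 3 genes of highest r. Of the interaction, only values of the 10 genes are given.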

Additional observations from a re-analysis of the deposited data

Results flagged for a closer look

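In each group of 4 to 10 libraries, a library was picked out where its gap to the nearest other library, divided by the range of the group, passed the 95% critical value of Dixon's test. Of 40 groups (10 genes in 4 groups of libraries) 5 had such a library, and chance picks out about 2 of 40. Dlk1 was at 399 CPM in OKO5, a gap of 0.920 of the range of the 7 OKO libraries. H19 was at 0.958 CPM in YKO1 (gap 0.901 of the range) and at 0.436 CPM in OWT4, the lowest of its group (0.842). Meg3 was at 16.3 CPM in OWT2 (0.837), which also had the highest Dlk1 level of OWT, and Rian was at 9.60 CPM in YWT4 (0.835), which also had the highest Dlk1 and Meg3 levels of YWT. OKO5, OWT2 and YWT4 had Y-linked counts and YKO1 and OWT4 did not.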

How the results depend on the processing

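The number of the 10 genes called in OKO vs YKO, 1 as reported, was 5 with DESeq2, 3 with upper-quartile normalization, 3 with no filter, 3 with a mean CPM of at least 1, 0 in a fit of the compared groups only, 3 with the title prefix as a covariate, 3 with OKO of 1 title prefix only, 4 with the Y-linked covariate, 0 without OKO1, OKO2, OKO3, YWT4 and YKO2, the 5 libraries lowest on the first component (chosen after seeing the data), and from 0 to 3 when 1 library was left out. The share of all genes called in OKO vs YKO moved too, from 1.29% as reported to 6.3% with DESeq2, 3.2% with upper-quartile normalization, 1.18% with no filter, 8.7% with a mean CPM of at least 1, 0.377% in a fit of the compared groups only, 19.1% with the title prefix, 17.9% with OKO of 1 title prefix only, 1.83% with the Y-linked covariate, 5.27% with the replicate block and 0.131% without the 5 libraries. DESeq2 called 1 of the 10 in YKO vs YWT and 1 for the interaction, where edgeR called 0, and the adjusted p alone left every count unchanged. Of the other imprinted genes, 2 were called in OKO vs YKO, and 6 with DESeq2, 1 with upper-quartile normalization, 1 with no filter, 4 with a mean CPM of at least 1, 0 in a fit of the compared groups only, 7 with the title prefix, 7 with OKO of 1 title prefix only, 0 without the 5 libraries, and from 0 to 4 with 1 library left out. Of the IGF and insulin genes 0 were called, and 4 with DESeq2, 1 with upper-quartile normalization, 2 with a mean CPM of at least 1, 4 with the title prefix, 3 with OKO of 1 title prefix only, and from 0 to 1 with 1 library left out. Of the imprint maintenance genes 1 was called, and 4 with DESeq2, 2 with upper-quartile normalization, 3 with a mean CPM of at least 1, 0 in a fit of the compared groups only, 10 with the title prefix, 10 with OKO of 1 title prefix only, 0 without the 5 libraries, and from 0 to 4 with 1 library left out. The replicate numbers do not pair the libraries (correlations of same-numbered libraries between -0.39 and 0.191). With the replicate number as a block, 3 of the 10 genes were called in OKO vs YKO, Peg3, Meg3 and Rian, with 2 of the other imprinted, 1 of the IGF and insulin and 6 of the imprint maintenance genes. The log2 fold change of Gadd45b, the targeted gene, passed the threshold in OKO vs YKO with DESeq2 (-1.05), the title prefix (-1.28), OKO of 1 title prefix only (-1.21), the Y-linked covariate (-1.1) and the replicate block (-1.3), and ranged from -1.23 to -0.789 with 1 library left out. In OKO vs OWT it passed with DESeq2 (-1.27). In OWT vs YWT it was -0.169 with the title prefix and from -0.025 to 0.495 with 1 library left out, and in YKO vs YWT from -0.425 to 0.182. Of 412 log2 fold changes of single genes under another setting, 41 changed sign, all of them uncalled. With the title prefix as a covariate these were H19 -0.881, Igf2 1.18, Dlk1 -1.11, Meg3 0.475, Rian 0.29, Peg3 0.913 and Mest 0.819 in OWT vs YWT, H19 -1.28 in OKO vs YKO, Igf2 -0.613, Igf2r 0.077 and Grb10 0.015 in OKO vs OWT. Without the 5 libraries these were Igf2 0.081, Meg3 0.265 and Rian 0.034 in OWT vs YWT, Igf2r -0.016, Dlk1 0.426 and Grb10 0.045 in YKO vs YWT, Igf2 -0.293 and Mest -0.515 in OKO vs YKO, Igf2 -0.634, Igf2r 0.082 and Grb10 0.015 in OKO vs OWT. With the Y-linked covariate these were Meg3 0.296 in OWT vs YWT, H19 -0.019 in OKO vs YKO. With the replicate number as a block these were Meg3 0.217 in OWT vs YWT, H19 -0.843 in OKO vs YKO, H19 -0.743 and Mest 0.113 in OKO vs OWT. With DESeq2 these were Grb10 0.009 in YKO vs YWT, Igf2r 0.033 in OKO vs OWT. With OKO of 1 title prefix only these were H19 -1.21 in OKO vs YKO, Igf2 -0.596, Igf2r 0.106 and Grb10 0.042 in OKO vs OWT. With upper-quartile normalization these were Igf2r 0.127, Grb10 0.048 and Mest 0.103 in OKO vs OWT. With a mean CPM of at least 1 these were Igf2r 0.088, Grb10 0.006 and Mest 0.058 in OKO vs OWT. In a fit of the compared groups only these were Igf2r 0.019 in OKO vs OWT. With 1 library left out, 37 of 760 changed sign, and the ranges of these genes were in OWT vs YWT Igf2 -0.48 to 0.273, Igf2r -0.208 to 0.261, Dlk1 -0.25 to 1.87, Meg3 -0.757 to 0.278, Rian -0.964 to 0.01, Grb10 -0.175 to 0.087 and Mest -0.149 to 0.039, in YKO vs YWT Igf2r -0.028 to 0.407, Dlk1 -1.21 to 0.274, Rian -0.933 to 0.261 and Grb10 -0.089 to 0.051, in OKO vs YKO H19 -0.676 to 0.289 and Mest -0.053 to 0.267 and in OKO vs OWT H19 -0.496 to 0.445, Igf2 -0.235 to 0.518, Igf2r -0.199 to 0.116, Dlk1 -0.062 to 3.43 and Grb10 -0.24 to 0.022. In none of these fits was the gene called. The cause of these changes was not tested. The title prefix term rests on the OKO libraries alone, so the OWT vs YWT values with it do not separate age from prefix. Low counts limit H19, Igf2 and, in YKO, Peg3, and the groups of 4 limit the exact tests to a smallest p of 0.0286. The relations between neighbouring genes kept their sign with a pseudocount of 0.5 and as deviations from group means, and Pearson r kept its side of the threshold, but as deviations the rank relations of Dlk1 with Rian (rho = 0.38, permutation p = 0.112) and H19 with Igf2 (rho = -0.39, permutation p = 0.0956) no longer passed it. Of the exact tests, 6 of the 40 had an unadjusted p under 0.05 with either pseudocount.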

Other observations

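The 7 libraries with Y-linked counts were set against the other 12 with a term in the edgeR model beside the 4 groups, a comparison added after the data were seen. These are groups taken from counts and not from the labels, which give female for all libraries. Dlk1 was at a median of 14.9 CPM in the 7 libraries and 7.08 CPM in the 12, and the term was 2.58 on the log2 scale (SE 0.49, edgeR adjusted p = 0.0517), so it did not pass the threshold over all genes, which 0.0475% of them did. Meg3 was at a median of 16.3 CPM against 4.78 CPM, with a term of 1.62 (SE 0.42, edgeR adjusted p = 0.467). Ndn had a term of 0.48 (SE 0.19, edgeR adjusted p = 1.00) and Rian one of 0.68 (SE 0.38, edgeR adjusted p = 1.00). For Peg3, the gene called in OKO vs YKO, the term was 0.39 (SE 0.34, edgeR adjusted p = 1.00), and its log2 fold change in OKO vs YKO was 2.81 with the term in the model.

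Usp29, a paternally expressed neighbour of Peg3, was at 1.07, 4.35, 1.46 and 1.13 CPM in YKO1 to YKO4 and at 0.989 to 11.4 CPM in OKO, highest in OKO1 and next in OKO3 (4.79 CPM). These groups overlapped, and the log2 fold change of Usp29 in OKO vs YKO was 0.82 (SE 0.61, edgeR adjusted p = 0.530). Snrpn, in the imprinted region of Ndn, had a log2 fold change of 1.00 in OWT vs YWT (SE 0.41, edgeR adjusted p = 1.00) and 0.98 in OKO vs YKO (SE 0.38, edgeR adjusted p = 0.197). Other genes of that region had log2 fold changes nearer to 0 or below it, in OWT vs YWT of -0.72 for Magel2, 0.19 for Mkrn3, -0.15 for Peg12 and -0.46 for Ube3a, and in OKO vs YKO of 0.30, 0.41, -0.16 and -0.45, none of them called. Usp29 and Snrpn were picked for their place beside a called or non-overlapping gene, after their values were seen.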
